A study of Mus musculus with 8 samples.

Results

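The genes described here act on fatty acids and on their coenzyme A esters (acyl-CoAs) in the cerebellum of 2 mouse strains. They are the probe sets whose only gene symbol in the platform annotation begins with the name of an acyl-CoA thioesterase (Acot, Them), long-chain acyl-CoA synthetase (Acsl), acyl-CoA dehydrogenase (Acad), thiolase (Acaa), hydroxyacyl-CoA dehydrogenase (Hadh), carnitine palmitoyltransferase (Cpt1, Cpt2), elongase (Elovl), desaturase (Fads) or fatty acid binding protein (Fabp). The rule used names alone and no measured value. It found 60 of the 18193 genes that were named alone on a probe set, measured by 115 of 45137 probe sets, 83 of 22626 on the Affymetrix 430A array and 32 of 22511 on the 430B array. RNA came from the cerebellum of 4 male, alcohol-naive mice, 2 Inbred Long Sleep animals (ILS, numbered 48 and 51) and 2 Inbred Short Sleep animals (ISS, numbered 55 and 56), whose ages are not given in the sources used here. The strains were bred from lines selected for long or short sleep after ethanol, and the series compares their expression without ethanol. Each mouse was measured once on each array. A value below is a signal intensity of 1 mouse, and a log2 difference is ILS minus ISS, so that a positive value means a higher signal in ILS.

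A fatty acid enters metabolism when an acyl-CoA synthetase joins it to coenzyme A, and a thioesterase can release it again. The carnitine palmitoyltransferases Cpt1a and Cpt2 carry long chains into mitochondria, where dehydrogenases, hydratases and thiolases shorten them by beta-oxidation. Elongases and desaturases in the endoplasmic reticulum lengthen chains and add double bonds. In brain the last of these routes supplies the long polyunsaturated chains of synaptic membranes and the very long chains of myelin, and beta-oxidation is known mainly from astrocytes.

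In 3 of the 60 genes a probe set passed the test described below, and the promoter windows of these genes are printed because these genes carry the called differences. Each runs from 250 bases before to 50 bases after the start of the gene on its own strand, from RefSeq on GRCm38.p6. Capitals mark GGGCGG (the GC box), CCAAT (the CCAAT box) and CACGTG (the E-box), each searched on both strands. The windows lie at chr3:94309882-94310181 (Them4, plus strand), chr13:108214154-108214453 (Elovl7, plus strand) and chr9:77917115-77917414 (Elovl5, plus strand).
Them4: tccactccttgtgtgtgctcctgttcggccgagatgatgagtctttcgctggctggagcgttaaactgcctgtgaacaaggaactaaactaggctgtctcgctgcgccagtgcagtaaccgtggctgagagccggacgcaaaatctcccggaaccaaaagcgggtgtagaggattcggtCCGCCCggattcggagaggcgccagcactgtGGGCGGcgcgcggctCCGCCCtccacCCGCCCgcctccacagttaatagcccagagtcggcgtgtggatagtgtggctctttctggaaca
Elovl7: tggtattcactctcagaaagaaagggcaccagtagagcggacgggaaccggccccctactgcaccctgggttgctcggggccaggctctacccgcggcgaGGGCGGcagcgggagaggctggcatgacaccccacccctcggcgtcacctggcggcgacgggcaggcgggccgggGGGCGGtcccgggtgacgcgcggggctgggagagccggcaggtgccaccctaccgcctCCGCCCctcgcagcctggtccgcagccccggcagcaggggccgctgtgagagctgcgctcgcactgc
Elovl5: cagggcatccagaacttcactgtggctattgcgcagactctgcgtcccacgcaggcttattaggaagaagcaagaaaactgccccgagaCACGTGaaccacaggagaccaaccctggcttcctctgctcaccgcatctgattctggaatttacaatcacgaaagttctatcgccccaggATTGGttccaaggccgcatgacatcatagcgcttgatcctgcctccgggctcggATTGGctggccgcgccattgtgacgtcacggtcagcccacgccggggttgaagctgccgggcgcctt
The Them4 window held 4 GC boxes, the nearest with its leftmost base 14 bases before the start, and the Elovl7 window held 3. The Elovl5 window held no GC box but 2 CCAAT boxes and 1 E-box. In RefSeq, 49 of the 60 genes had a window. Of their 56 windows 60.7% held a GC box, against 35.7% of all 32851 windows, and 50% held a CCAAT box, against 37.4%. Member windows were also richer in G and C, with a median of 58.5% against 52.7% in all windows. The part of this base content in the GC box share was not tested. The E-box stood in 7.14% of member windows and 7.15% of all. The TATA box (TATAAA) stood in 8.93% of member windows and 13.6% of all. A match is a match of letters and not a shown binding site. The direct repeat bound by nuclear receptors such as PPARs, searched as AGGTCANAGGTCA, was found in 0 member windows and in 0.0396% of all, and the sterol regulatory element, searched as TCACNCCAC, in 1 member window, that of Fabp6.

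Few of these genes passed the test for a difference between the strains. A probe set was tested where its mean log2 signal reached the median of its chip, which 48 of the 83 did on 430A and 25 of the 32 on 430B, standing for 47 genes in all. Strains were compared within each chip by limma, with Benjamini-Hochberg adjustment over all tested probe sets of the chip and a threshold of 0.05. On 430A 3 of the 48 tested members passed, Elovl7 and Elovl5 toward ILS and Them4 toward ISS. Of all 11313 tested probe sets of the chip 2.93% passed, 1.61% toward ILS and 1.33% toward ISS. On 430B 1 of the 25 tested members passed, a Them4 probe set higher in ISS that was dim in ILS and reached the test through its ISS signals, so its call is no second support for Them4. There 0.48% of all 11256 tested probe sets passed, and 0.284% of all tested passed with a higher signal in ISS. The members' shares, 6.25% and 4%, rest on 3 probe sets and 1 probe set. An unadjusted p under 0.05 was found in 13 of the 48 tested members on 430A (27.1%, against 21.8% of all tested probe sets) and in 3 of the 25 on 430B (12%, against 9.02%).

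The middle of the distribution lay close to that of the chips. The median log2 difference of the tested members was 0.07 on 430A, against -0.01 over all tested probe sets, and -0.05 on 430B, against -0.00. On 430A 34 of 48 members lay above 0, or 70.8% against 48.3% of all tested probe sets. On 430A the signals of the strains were apart in 52.1% of tested members, against 54.3% of all tested probe sets, with ILS above ISS in 19 members (39.6%, against 25.6% of all) and ISS above ILS in 6 (12.5%, against 28.7%). On 430B they did not overlap in 52% of tested members, against 38.9% of all, with ILS above in 6 (24%, against 19.6%) and ISS above in 7 (28%, against 19.3%). Scaling to equal array medians moved all probe sets of 430A alike. The median of all tested probe sets became -0.17 and that of the members -0.09, with 16 of 48 members above 0 (33.3%, against 28.2% of all). Relative to the median of the chip the members stood 0.08 higher, and 34 of 48 lay above it. A shift of all probe sets alike cannot change either value. With quantile normalization the members stood 0.07 higher, and 32 of 48 lay above the median of the chip.

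**Figure D1:**
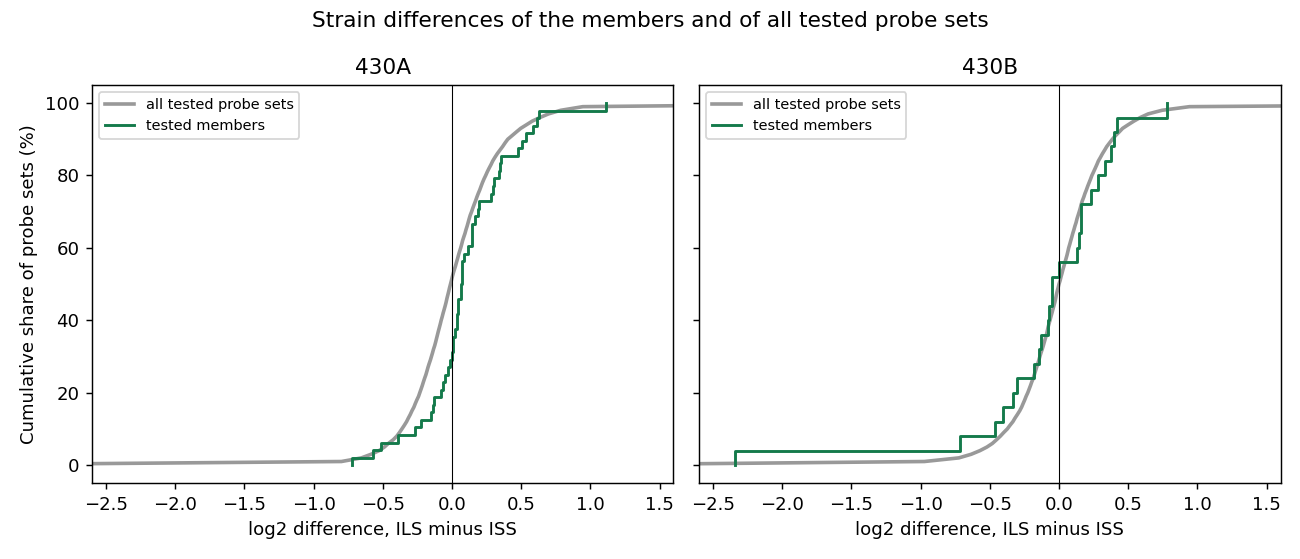
Cumulative share (%, vertical axis) of probe sets by log2 difference, ILS minus ISS (horizontal axis), for all tested probe sets (grey) and the tested members (green), 430A left and 430B right. The member curve of 430A runs to the right of the grey curve near 0 (medians 0.07 and -0.01), and the lowest step on 430B is Them4 at -2.34.

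**Figure D2:**
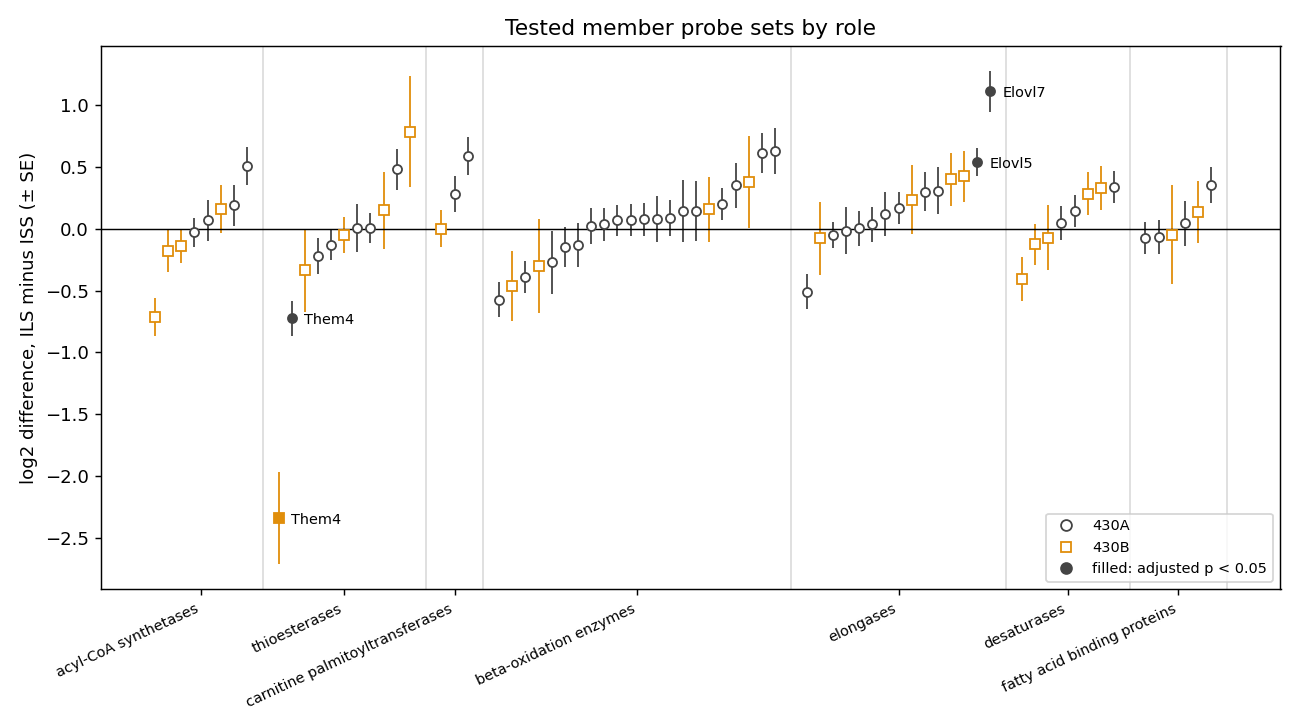
Log2 difference, ILS minus ISS, of each of the 73 tested member probe sets by role, with limma's standard error as bars, circles for 430A and squares for 430B. Filled symbols passed at an adjusted p under 0.05, and these are both Them4 probe sets, 1 of Elovl7 and 1 of Elovl5.

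Among the thioesterases, Them4 was lower in ILS at its probe set on 430A. Them4 is a mitochondrial acyl-CoA thioesterase that was also described as a binding partner of the kinase Akt. On 430A its probe set 1427055_at gave 406.9 and 452.3 in the ILS mice and 722.4 and 695.5 in the ISS mice. Both ISS mice were above both ILS mice. The means were 429.6 ± 32.1 in ILS and 709 ± 19 in ISS (SD, n = 2), a 1.65-fold higher signal in ISS and a log2 difference of -0.72 ± 0.14 (SE, limma adjusted p = 0.0388). On 430B the probe set 1431140_at gave 140.5 and 79.6 in ILS and 512.6 and 558.6 in ISS. Here too the strains did not overlap, and each ILS value was under its array's median. The log2 difference was -2.34 ± 0.37 (SE, limma adjusted p = 0.0306), and the signal was at least 2.18-fold higher in ISS when ILS is set to the array median. This probe set entered the test through its ISS values, a selection that favours this direction. In RNA of whole tissue, fewer cells of a type and less RNA per cell cannot be told apart. The chips measured the same 4 mice, so the second probe set adds no further animals.

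Both Them4 calls rested on few mice. On 430A the adjusted p was 0.128 and 0.0503 when ILS replicate 48 or 51 was left out, and 0.0595 and 0.09 when ISS replicate 55 or 56 was, with log2 differences from -0.80 to -0.65. On 430B the call held without ILS replicate 48 (0.0426) and ended without ILS replicate 51 (0.0807), ISS replicate 55 (0.15) or ISS replicate 56 (0.272), with log2 differences from -2.75 to -1.93. On 430B ILS replicate 48 alone ran on fluidics station 1, and with the station as a block the difference was -2.75 with an adjusted p of 0.0556. Both calls ended when dim probe sets were tested too (0.0689 and 0.162). The sign was negative under every alternative tried in which either probe set was tested.

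**Figure D3:**
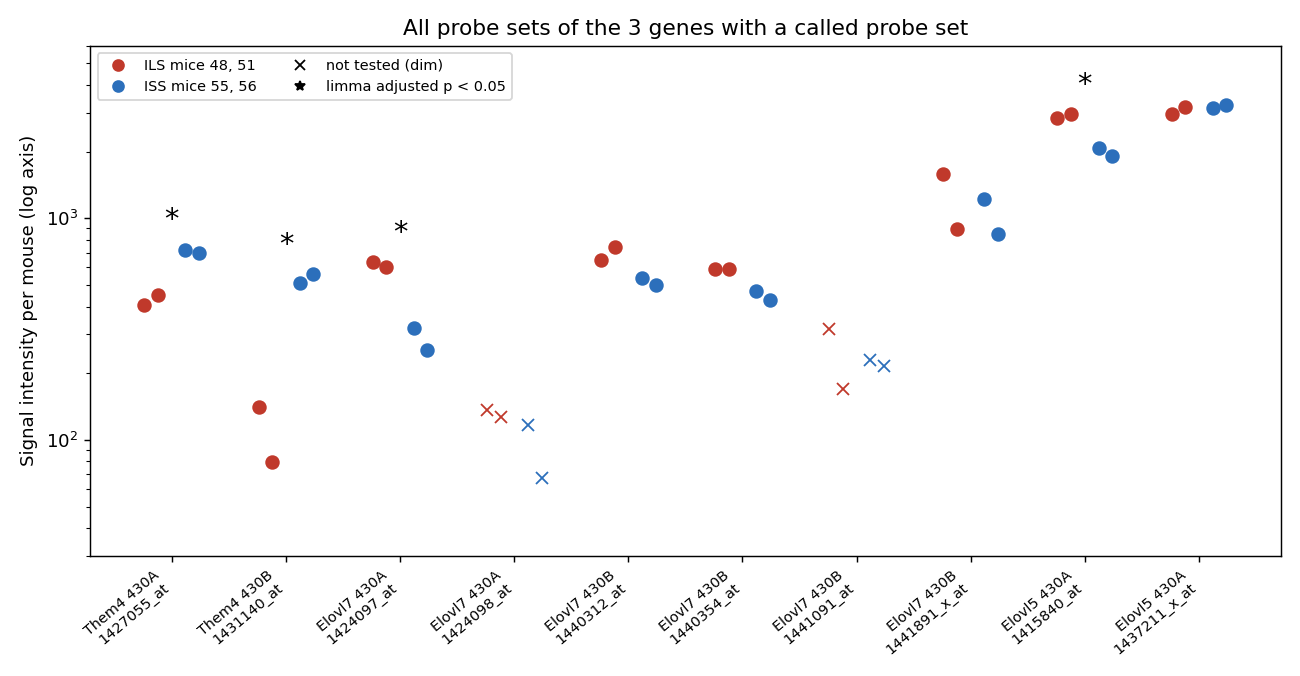
Signal intensity of each mouse (log axis) at all probe sets of Them4, Elovl7 and Elovl5, ILS in red and ISS in blue, with crosses where a probe set was too dim to be tested and an asterisk where the adjusted p was under 0.05. Both ISS mice lie above both ILS mice at both Them4 probe sets, and both ILS mice lie above both ISS mice at 3 of the 4 tested probe sets of Elovl7.

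The other thioesterases did not pass. Of 11 tested probe sets of Acot and Them genes on both chips 9 were not called. Acot6 gave 462.1 and 422.1 in ILS and 348.1 and 288.2 in ISS, a log2 difference of 0.48 (limma adjusted p = 0.149). Its strains did not overlap. Acot7, the main cytosolic acyl-CoA thioesterase of neurons, gave 3589.3 and 4388.6 in ILS and 4017.5 and 3884.4 in ISS. The ISS values lay between the ILS values, and the log2 difference was 0.01 ± 0.12 (SE). Them6 stood at 756.2 and 928.1 in ILS and at 885.8 and 267.9 in ISS, so that only ISS mouse 56 was low. Its log2 difference was 0.78 ± 0.45 (SE, limma adjusted p = 0.682), and without ISS replicate 55 it became 1.65 with an adjusted p of 0.017, and without ISS replicate 56 it was -0.08. Acot13 (-0.13), Acot9 (-0.22), Acot8 (0.00), Acot11 (-0.05), Acot2 (-0.34) and Them7 (0.15) had adjusted p-values of 0.412 or more. Them5, the neighbour of Them4 in the RefSeq gene order, was too dim to be tested at all 3 of its probe sets.

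Elongases gave the calls toward ILS. Elovl7, which lengthens long saturated chains, stood at 634.3 and 600.4 in ILS and 320.9 and 254.7 in ISS at probe set 1424097_at on 430A. Both ILS mice were above both ISS mice. The means were 617.4 ± 24 and 287.8 ± 46.8 (SD, n = 2), 2.16-fold higher in ILS, with a log2 difference of 1.11 ± 0.17 (SE, limma adjusted p = 0.0187). On 430B 3 further Elovl7 probe sets were tested. The first gave 651.3 and 743.2 in ILS and 537.2 and 501.9 in ISS, and the second 593.1 and 589.2 against 469.7 and 428.4. Neither overlapped between strains, and their log2 differences of 0.42 and 0.40 were not called (adjusted p = 0.6 and 0.65). The third, 1441891_x_at, ranged from 898.1 to 1590.4 in ILS and from 850.2 to 1217.4 in ISS and overlapped (0.23). A pair of Elovl7 probe sets was too dim to be tested. 1424098_at on 430A gave 135.8 and 127 in ILS and 116.8 and 67.5 in ISS, and 1441091_at on 430B gave 316.8 and 169.2 against 229.9 and 215.3, where the strains overlapped. All 4 tested probe sets of Elovl7 thus had a positive difference, of unequal size. The call on 430A ended without ILS replicate 48 (adjusted p = 0.0751) and held without any 1 of the other mice (0.00193 to 0.0429).

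Elovl5, which lengthens polyunsaturated chains, was called at 1 of its 2 probe sets. At 1415840_at it gave 2837.5 and 2943.6 in ILS and 2069.4 and 1916.9 in ISS, without overlap. The log2 difference was 0.54 ± 0.11 (SE), a 1.45-fold higher signal in ILS with a limma adjusted p of 0.0471, just under the threshold. At 1437211_x_at the signals were 2970.9 and 3182.3 in ILS and 3141.1 and 3236.7 in ISS, which overlapped, with a log2 difference of -0.05 ± 0.11 (SE, adjusted p = 0.803). Probe sets of the kind marked x can hold probes that match other sequences. This limit applies to every probe set so marked, also to those of Elovl7, Acaa1a and Hadh. What they match was not analysed. The call ended without any 1 of the 4 mice (adjusted p = 0.104 and 0.0786 for ILS 48 and 51, 0.0581 and 0.226 for ISS 55 and 56) and with equal array medians (0.0946).

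Elovl4, which makes the very long chains and whose human gene is mutated in a spinocerebellar ataxia, also gave unequal probe sets. At 1451308_at it stood at 398.2 and 423 in ILS and 607.2 and 562 in ISS, without overlap, and the log2 difference of -0.51 did not pass (limma adjusted p = 0.0929). It passed with equal array medians (-0.67, adjusted p = 0.0216). The other Elovl4 probe set had a log2 difference of 0.17. Elovl6, Elovl1 and Elovl2 had log2 differences between -0.08 and 0.31, none of them called. In all 11 of 15 tested elongase probe sets, which stand for 6 genes, had a positive difference, 8 of 11 on 430A and 3 of 4 on 430B. On 430B this was 75%, against 49.9% of all tested probe sets. Those 3 were all of Elovl7, so they add no further elongase. On 430A 72.7% of elongase probe sets lay above 0, against 48.3% of all tested. With equal array medians 5 of 11 did (45.5%, against 28.2%). Above the median of the chip lay 8 of 11, a count that equal medians cannot change. With quantile normalization 8 of 11 lay above it too.

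None of the 8 tested probe sets of acyl-CoA synthetases passed limma on either chip. An unadjusted p under 0.05 was found at 1 of 4 on 430A and 1 of 4 on 430B (25% each, against 21.8% and 9.02% of all). Acsl3, which activates long chains at the endoplasmic reticulum and lipid droplets, had the largest difference of these. At 1452771_s_at it gave 3371.4 and 2715.1 in ILS and 5245 and 4701.3 in ISS, without overlap. The log2 difference was -0.71 ± 0.15 (SE, limma adjusted p = 0.101). Its other probe sets on the same chip stood at -0.18 and 0.16. Acsl4, which prefers arachidonic acid, gave 468.1 and 427.6 in ILS and 310.2 and 319.4 in ISS at 1433531_at. The strains did not overlap, and the log2 difference of 0.51 was not called (adjusted p = 0.11), while a second probe set stood at 0.19. Acsl6, an isoform of neurons, gave 2574.4 and 2397 in ILS and 2756.6 and 2728.2 in ISS on 430B, with both ISS mice above both ILS mice (-0.14, adjusted p = 0.834). It stood at -0.03 on 430A, and Acsl5 at 0.07.

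Among the carnitine palmitoyltransferases, Cpt2, the enzyme of the inner mitochondrial membrane, gave 425.5 and 470.1 in ILS and 291.4 and 305.1 in ISS. Both ILS mice were higher, 1.5-fold in the mean. The log2 difference of 0.58 ± 0.15 (SE) missed the threshold (limma adjusted p = 0.0822). Cpt1a, the outer membrane enzyme that sets the pace of entry, gave 689.3 and 817.9 in ILS and 626.9 and 611 in ISS, again without overlap (0.28, adjusted p = 0.301). Cpt1c, the isoform of neurons, gave 2510.2 and 2143 in ILS and 2376.8 and 2265.6 in ISS on 430B. Its strains overlapped, with a log2 difference of -0.00 ± 0.15 (SE).

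The beta-oxidation enzymes had 22 tested probe sets and no call by limma. An unadjusted p under 0.05 was found at 4 of 18 on 430A (22.2%, against 21.8% of all) and 0 of 4 on 430B. Acads, the dehydrogenase of short chains, gave 333.9 and 287.1 in ILS and 213.7 and 187.9 in ISS. Its mean log2 signal in ISS lay under the filter, so it entered the test through its ILS values. That selection favours a higher signal in ILS. Acaa1a, a peroxisomal thiolase, gave 632.4 and 543.9 in ILS and 420.1 and 350 in ISS at 1456737_x_at. At both genes the strains did not overlap, and the log2 differences of 0.63 and 0.61 missed the threshold (limma adjusted p = 0.108 and 0.0825). Acaa1a passed without ISS replicate 55 (0.75, adjusted p = 0.0488). Hadh, the mitochondrial hydroxyacyl-CoA dehydrogenase, stood the other way at 1455972_x_at, with 1047 and 1285.5 in ILS and 1703.3 and 1749.9 in ISS. Its log2 difference there was -0.57 (adjusted p = 0.0701), while its probe set 1460184_at gave 646.9 and 698.4 in ILS and 656 in each ISS mouse (0.04). The first of these passed with equal array medians (-0.73, adjusted p = 0.015) and without ILS replicate 51 (-0.72, adjusted p = 0.047).

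Hadhb, the thiolase subunit of the mitochondrial trifunctional protein, gave 1807.7 and 2127.3 in ILS and 2671.7 and 2466.9 in ISS at 1426522_at. The strains did not overlap there, and the log2 difference was -0.39 (limma adjusted p = 0.131). It passed with equal array medians (-0.55, adjusted p = 0.0355). Other Hadhb probe sets stood at 0.09 on 430A and -0.46 on 430B. Hadha, the other subunit and the neighbour of Hadhb, stood at 0.07. The dehydrogenases Acadvl (0.07), Acadl (0.07) and Acadm (0.20), for very long, long and medium chains, differed little, though their strains did not overlap. Acad8 stood at 0.35 (adjusted p = 0.312), Acadsb at -0.27, Acad12 at 0.38 and Acad10 at -0.30. Acad9, Acad11 and Acaa2 stayed between -0.15 and 0.16.

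Desaturases had 8 tested probe sets and no call by limma. An unadjusted p under 0.05 was found at 1 of 3 on 430A and 1 of 5 on 430B (33.3% and 20%, against 21.8% and 9.02% of all). Fads2, which starts the synthesis of long polyunsaturated chains, gave 899.3 and 912.6 in ILS and 735.8 and 697.6 in ISS at 1449325_at. The strains did not overlap, with a log2 difference of 0.34 (limma adjusted p = 0.182), and a second probe set stood at 0.14. Its neighbour Fads1, which acts later on the same chains, stood at 0.05 on 430A and -0.13 on 430B. Fads3, of the same gene cluster, gave 798.2 and 764.4 in ILS and 1111.8 and 963.9 in ISS on 430B, the opposite order (-0.41, adjusted p = 0.549). Fads6 gave 1338.3 and 1194.2 in ILS and 910.8 and 1107.7 in ISS at 1436355_at, and 3635.6 and 2636.7 against 2505 and 2585 at 1443904_at. Both ILS mice were above both ISS mice at each, and the log2 differences of 0.33 and 0.28 were not called (adjusted p = 0.647 and 0.7). Fads2b stood at -0.07. The 3 genes of the cluster, Fads1, Fads2 and Fads3, had differences of both signs.

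Fatty acid binding proteins, which carry fatty acids through the cytosol, had 6 tested probe sets and no call by limma. An unadjusted p under 0.05 was found at 1 of 4 on 430A (25%, against 21.8% of all) and 0 of 2 on 430B. Fabp5 gave 3668.4 and 2879.8 in ILS and 2774.9 and 2337.2 in ISS at 1416021_a_at (0.35, limma adjusted p = 0.215). Its probe set 1416022_at stood at -0.08. Fabp7, the brain form found in radial glia, astrocytes and Bergmann glia, gave 2646.8 and 1776.3 in ILS and 2005.1 and 2212 in ISS. The ISS mice lay between the ILS mice, and the log2 difference was 0.04 ± 0.18 (SE). Fabp3, the heart form, gave 404 and 375.7 in ILS and 343.1 and 368 in ISS on 430B, without overlap (0.13, adjusted p = 0.925). It stood at -0.07 on 430A, and Fabp12 at -0.05.

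The other 42 member probe sets were too dim to be tested, 35 on 430A and 7 on 430B. For 13 genes no probe set was tested. These were the thioesterases Acot1, Acot3, Acot4, Acot5, Acot12 and Them5, the thiolase Acaa1b, the elongase Elovl3 and the binding proteins Fabp1, Fabp2, Fabp4, Fabp6 and Fabp9. Several of these are known from other organs, Fabp1 from liver, Fabp2 and Fabp6 from intestine and Fabp4 from fat. Acot1, Acot3, Acot4 and Acot5 lie in 1 cluster with Acot2 and Acot6 in the RefSeq gene order. The value table gives no detection calls, so a dim probe set is not shown to be without a transcript. A further 4 probe sets carried several symbols of these families (Acaa1a with Acaa1b, Acot1 with Acot2, Acot9 with Acot10) and were left out by the rule.

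Probe sets of 1 gene often differed from each other. Of the 19 genes with 2 or more tested probe sets 7 had differences of one sign throughout. These were Them4, Elovl7, Acsl4, Acsl6, Fads2, Fads6 and Acad11. Of the 8 genes tested on both chips 3 had one sign (Them4, Elovl7 and Acsl6). The Them4 probe set of 430B reached the test through its ISS signals, a selection that favours its sign. The shared sign of Them4 is therefore no support in either count. Within a gene the log2 differences spread over 0.88 for Elovl7 and 0.87 for Acsl3, and no spread is given for Them4, whose difference on 430B is a bound. What the probe sets of a gene match was not analysed here.

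**Figure D4:**
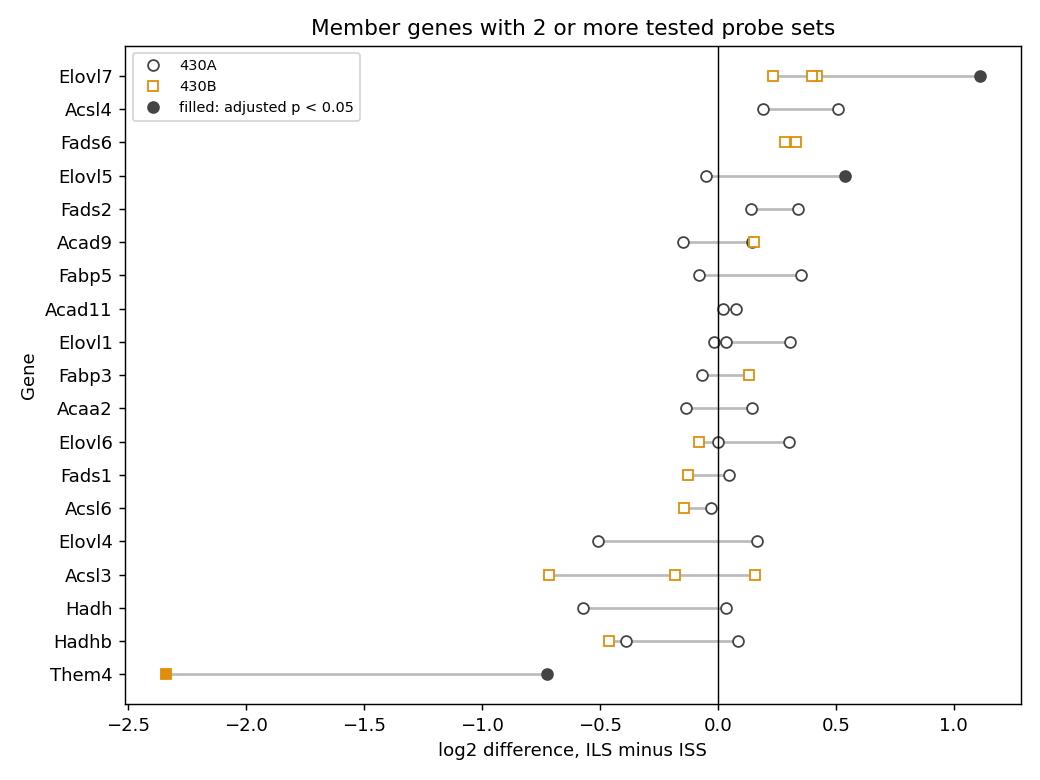
Log2 difference, ILS minus ISS (horizontal axis), of every tested probe set of the 19 genes with 2 or more, circles for 430A and squares for 430B, joined by a line per gene and filled where the adjusted p was under 0.05. Them4 lies left of 0 and Elovl7 right of 0 at every tested probe set, while the line of Elovl5 crosses 0. The Them4 square of 430B entered the test through its ISS signals, which favours this side.

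Further genes of the pathway were counted at the brightest probe set of each gene. On 430A 60 genes of 7 lists were tested, of which 3 were called, each with the higher signal in ISS, and on 430B 0 of 20 were called by limma. Of all tested probe sets 2.93% were called on 430A, 1.33% toward ISS, and 0.48% on 430B. Counts this small do not set the lists apart from the chips. Ppt1, a lysosomal thioesterase that removes palmitate from proteins, had 981.7 ± 23.2 in ILS and 1723 ± 103 in ISS (SD, n = 2), a log2 difference of -0.81 ± 0.12 (SE, limma adjusted p = 0.0215). A second Ppt1 probe set of 430A was called as well (-0.85), while those of 430B stood at 0.25 and 0.41 and were not. At the last of these each ISS value was under its array's median, so its fold is a bound (at least 1.3-fold higher in ILS). The calls ended without ILS replicate 48 (adjusted p = 0.0515 and 0.0785), and the first also without ISS replicate 56 (0.0642). Thrsp, a regulator of fatty acid synthesis, had 667.2 ± 16.5 in ILS and 1285 ± 283 in ISS (SD, n = 2), a log2 difference of -0.93 ± 0.17 (SE, limma adjusted p = 0.0346). It was called only where ISS replicate 55 was left out (0.00266), among the 4 mice left out in turn, with 0.101 and 0.055 for ILS 48 and 51 and 0.0988 for ISS 56. A second Thrsp probe set stood at -0.60 and was not called. Hacd3, a dehydratase of the elongation cycle, fell in ILS at its brightest probe set (-0.63, adjusted p = 0.0334), and its other probe sets stood at -0.02 and -0.12. This call held without ILS replicate 51 (0.0297) and ended without ILS replicate 48 (0.0895), ISS replicate 55 (0.0517) or ISS replicate 56 (0.0796).

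By list, the call among 12 acyl-CoA binding and related genes on 430A was Ppt1, the call among 8 fatty acid synthesis genes was Thrsp and the call among 5 elongation partners was Hacd3. No gene was called among 15 further genes of mitochondrial oxidation (median log2 difference -0.05), 7 of peroxisomal oxidation (-0.04), 5 of ketone body metabolism (-0.17) or 8 transcription factors of lipid metabolism (-0.16). At the lowest p in these lists stood Mcee (-0.46) and Eci1 (-0.36) of mitochondrial oxidation, Scp2 (-0.34) and Decr2 (0.56) of peroxisomal oxidation and Bdh1 (-0.38) and Acat1 (-0.21) of ketone body metabolism, each at its brightest probe set. Among the transcription factors these were Ppargc1a (0.49) and Mlx (-0.35). Ppargc1a, a coactivator that raises mitochondrial oxidation, had 5 tested probe sets on 430A with log2 differences from 0.40 to 0.72. None of them passed, the lowest limma adjusted p being 0.0701. Some genes named here had a further tested probe set of the other sign on 430A. Scp2 stood at 0.29 and Mlx at 0.13 at a second probe set, and Acat1 at -0.24 and 0.26 at its others.

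The arrays and the makeup of the tissue bear on these values. On 430A both ILS arrays ran on fluidics station 2 and before both ISS arrays in scan order, and on 430B both ISS arrays were scanned first, so strain cannot be told apart from scan order on either chip or from station on 430A. A control for the 3' end of 18S ribosomal RNA read 537.8 to 801.1 in ILS and 141.9 to 147.1 in ISS on 430A, and 2189.4 to 2585.5 in ILS and 545.1 to 712.2 in ISS on 430B. Markers of cerebellar neurons were present, with 10 of 10 Purkinje and 8 of 9 granule cell markers on 430A bright enough to be tested and no marker at 0. Of all tested probe sets of 430A 1.61% were called toward ILS and 1.33% toward ISS. Of 9 tested microglia markers 4 were called higher in ILS. The 12 listed genes had a summed signal of 7410 to 7565 in ILS and 4872 to 5706 in ISS. Of 10 Purkinje markers 2 were called lower in ILS, with sums of 35458 to 38212 in ILS and 40069 to 50390 in ISS. On 430B the Purkinje marker Car8 was called the other way (log2 difference 1.51, limma adjusted p = 0.0137), and the sums of 3 markers overlapped (5747 to 7758 in ILS, 5520 to 7338 in ISS). Oligodendrocyte markers, 1 of 8 called with a higher ILS signal, summed to 32292 to 33622 in ILS and 29014 to 31844 in ISS. On 430A 0 of 11 markers of Bergmann glia and astrocytes were called by limma. An unadjusted p under 0.05 was found at 5 of the 11, against 21.8% of all tested probe sets. Of these Gfap (-1.05), Gdf10 (-0.70), Hopx (-0.43) and Aldh1l1 (-0.42) were lower in ILS and Glul (0.43) was higher. On 430B 1 of 4 was called, Gfap, with 253.2 ± 48.1 in ILS and 1320 ± 354 in ISS (SD, n = 2, log2 difference -2.37, limma adjusted p = 0.00421). Its ILS mean lay near the medians of the ILS arrays (229.6 and 261.4). The Gfap probe sets of 430A stood at -1.05 and -0.21 and were not called (limma adjusted p = 0.0618 and 0.702). Of 4 granule cell markers tested on 430B 1 was called, Slc17a7, lower in ILS (-1.14, limma adjusted p = 0.0204), and 2 of the 4 had a positive difference. On 430A 0 of 8 granule cell markers were called, with 7 negative and 1 positive. The part of these cell types in the differences of Them4, Elovl7 and Elovl5 was not tested.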

How the data were processed

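RNA of the cerebellum of 4 mice was hybridised to the 430A and 430B arrays, 8 in all. The deposited values are intensity signals on a linear scale. The submitters' processing notes name MAS5 without a version. Judged by its values, each array had been scaled to a 2% trimmed mean of 500. The experiment files (unit other) give chip type, station and scan order, per the file headers.

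Arrays were rescaled to that mean, log2 transformed and stripped of 64 control probe sets. Probe sets at or above the chip median of mean log2 were tested with limma 3.58.1 in R 4.3.3 (eBayes, prior variance following intensity), two-sided, within each chip, with 2 residual degrees of freedom. The threshold was an adjusted p of 0.05. A strain counted as dim where each of its signals was under the array median, and a fold against it is a lower bound. All 60 gene identifiers matched the RefSeq table of GRCm38.p6. The number of mice limits the precision. The steps were tested on simulated data.

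Members, lists and tests were chosen with earlier results of these data known. Values by mouse are given for called probe sets, the other probe sets of those genes, and in each role the 3 genes with the smallest p and the brightest gene. In further lists the called genes are named, or the 1 or 2 of lowest p where none was called. Alternatives were equal medians, quantile normalization, an added pseudocount (45.1 on 430A, 59.4 on 430B), testing every probe set, testing those above the 75th percentile, no intensity trend, each mouse left out, and the station as a block on 430B. A strain left with a single mouse is taken to have the spread of the other strain.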

Additional observations from a re-analysis of the deposited data

How the results depend on the processing

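On 430A the 3 member calls became 5 with equal array medians (1 higher in ILS), 1 with no filter, 0 with the stricter filter, which left 24 members to test and did not include Them4 or Elovl7, and ranged from 0 to 2 when a mouse was left out. They became 2 without the intensity trend, which ended the Elovl5 call, and stayed at 3 with quantile normalization and with the pseudocount. On 430B the 1 call became 0 with no filter, with the stricter filter, without the intensity trend and with the station as a block, and ranged from 0 to 1 when a mouse was left out. With 1 mouse left out the call on 430B was Them4 without ILS replicate 48 and Them6 without ISS replicate 55. The stricter filter left 13 members to test on 430B and did not include the Them4 probe set. The median log2 difference of the tested members on 430A moved to -0.0897 with equal array medians, and that on 430B to 0.0952 with no filter, which adds dim members. Over all probe sets, 332 calls on 430A (54.8% higher in ILS) became 1158 with equal array medians (19.3% higher in ILS), 136 with no filter, 163 with the stricter filter and 115 to 626 when a mouse was left out. On 430B 54 calls became 13 with no filter, 4 without the intensity trend, 24 with the station block and 25 to 67 when a mouse was left out. The cause of these changes was not tested. Of the called member probe sets, Elovl7 kept its call in 8 of 9 alternatives, Them4 in 4 of 9 on 430A and 4 of 10 on 430B, and Elovl5 in 2 of 10, with no change of sign. Of 242 alternatives of the other 24 described member probe sets 6 passed the threshold and 0 of the called ones changed sign. No paired analysis was possible because the strains share no mouse numbers. Signals below the array median, such as those of Them4 in ILS on 430B, give a bound on a fold and no size.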
